A study of Mus musculus with 18 samples.

Results

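Elastic fibre and microfibril genes are the 10 mouse genes Eln, Fbn1, Fbn2, Fbln1, Fbln5, Efemp2, Mfap2, Mfap4, Mfap5 and Ltbp4, chosen by name and found by Ensembl identifier among the 55416 genes of the tables. RNA was measured in optic nerve head excised from tissue sections by laser capture microdissection. The 4 groups were 22-month-old mice labelled B6.EDA+/+ (EDA_22mo, n = 3), 22-month-old C57BL/6J controls (WT_22mo, n = 5), 12-month-old B6.EDA+/+ mice (EDA_12mo, n = 5) and 12-month-old C57BL/6J controls (WT_12mo, n = 5). As background, EDA+/+ mice were engineered to include the extra domain A (EDA) exon of fibronectin in all transcripts, while wild-type mice splice it variably. No treatment, sex or litter is given in the labels, and replicate numbers follow accession order. Xist was above Y-linked genes in 1 of 3 EDA_22mo, 0 of 5 WT_22mo, 2 of 5 EDA_12mo and 2 of 5 WT_12mo libraries, so the class is uneven at 22 months.

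An elastic fibre has a core of crosslinked elastin and a mantle of microfibrils. Microfibrils are bundles of fibrillin decorated by small glycoproteins, and fibulins help to deliver elastin and its crosslinking enzymes to them. Latent TGF-beta binding proteins share domains with fibrillin and tie matrix assembly to the storage of growth factors. The optic nerve head is the exit of retinal ganglion cell axons from the eye. Its elastic fibres lie in connective tissue and vessel walls and are known to change in glaucoma.

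Libraries held 13097498 to 18488733 expected counts, the read numbers that RSEM estimates for each gene, and 9715 to 13061 genes had 10 or more. Astrocyte markers, led by Gfap at 5350 to 29487 CPM (reads scaled to a common library size with TMM factors), were present in all 18 libraries. Of these 8 markers only Aldh1l1 was ever at 0, in 1 library. In RSEM's isoform estimates the fibronectin exon did not follow the labels, and Fn1 had 68 to 1485 reads in a library. Whether the labels or the estimates differ from the mice cannot be told apart. Of Fn1 isoforms that span the 270-nt EDA exon, 0% to 58.5% of TPM held it in EDA-labelled libraries and 0% to 100% in control-labelled ones, with 0% in 4 of 8 and in 5 of 10 libraries. Libraries are therefore called EDA-labelled and control-labelled, and each direction is between labels. Several libraries stood apart in markers of other cells. The 8 oligodendrocyte markers summed to 26622 CPM in EDA_12mo replicate 3 and to 28783 CPM in WT_22mo replicate 3, against 362 to 9423 CPM in the other 16 libraries. In EDA_12mo replicate 4 astrocyte markers summed to 33051 CPM, against 7240 to 14861 CPM in the other 17. Photoreceptor markers summed to 3229 CPM in WT_22mo replicate 2 and to at most 83.0 CPM elsewhere. Skeletal muscle markers summed to 226 CPM in EDA_22mo replicate 1 and to at most 8.96 CPM elsewhere.

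Together the 10 genes had 258 to 1047 CPM per library, before TMM scaling. Ltbp4 held on average 45.6% of those reads, Fbln1 22.8% and Fbn1 15.3%, while Mfap2, Mfap4 and Mfap5 held under 1% each. Per transcript length the order differed. Ltbp4 had a median of 109.7 TPM over 18 libraries (51.4 to 245), Fbln1 97.3 (19.0 to 280.0), Efemp2 38.7 (20.5 to 112) and Fbln5 35.4 (4.34 to 73.6). A lower set followed, with medians of 11.5 TPM for Fbn1, 9.09 for Mfap2, 7.15 for Eln, 4.94 for Mfap5 and 4.50 for Mfap4. Fbn2 had a median of 0 TPM. Most neighbours in this order overlapped: Ltbp4 was above Fbln1 in 12 of 18 libraries, Efemp2 above Fbln5 in 11, Mfap2 above Eln in 11 and Mfap5 above Mfap4 in 9. The step from Fbln1 to Efemp2 held in 15 libraries, from Fbln5 to Fbn1 in 14, from Fbn1 to Mfap2 in 13, from Eln to Mfap5 in 12 and from Mfap4 to Fbn2 in 18.

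**Figure D1:**
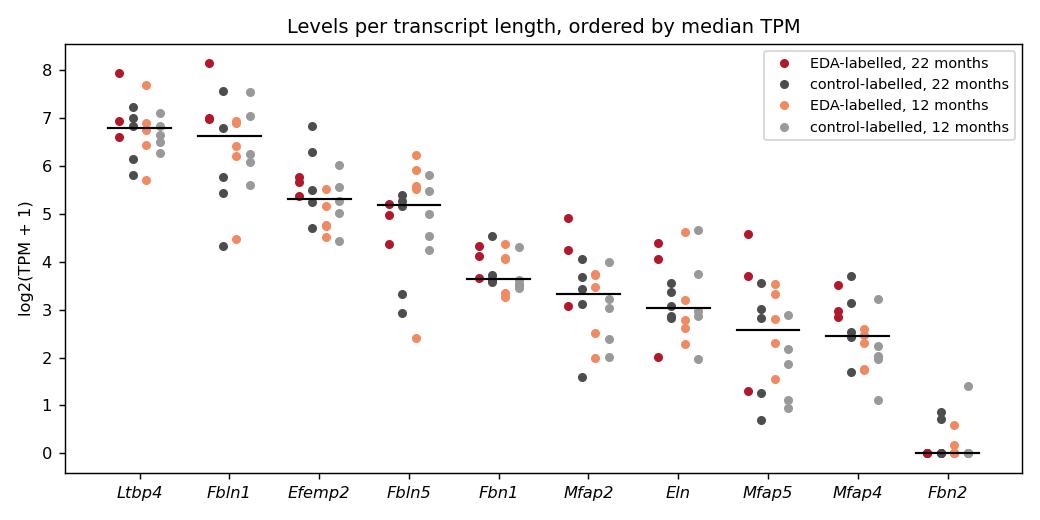
The 10 genes (x axis, ordered by median TPM) in 18 libraries, as log2(TPM + 1), with 1 point per library coloured by group and a bar at the median over all libraries. The medians run from 109.7 TPM for Ltbp4 to 0 TPM for Fbn2, and most neighbouring genes overlap.

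TPM depends on which isoforms RSEM gave the reads to, and for several members much of it lay on noncoding or short models. Isoforms annotated as protein coding took 99.8% ± 0.644 of Fbln1 TPM and 98.4% ± 3.76 of Fbn1 TPM (SD, n = 18). They took 79.8% ± 14.6 for Eln, 77.5% ± 34.9 for Mfap4, 56.8% ± 10.3 for Efemp2 and 46.0% ± 24.1 for Mfap2 (SD, n = 18). For Ltbp4 the coding share was 44.0% ± 14.9, and for Fbln5 it was 22.8% ± 12.3 (SD, n = 18). In Fbln5 the retained-intron model Fbln5-202, of 1794 nt, took 77.2% ± 12.3 of TPM (SD, n = 18), against 5.33% ± 1.84 for the 5829-nt coding isoform Fbln5-201. The library kit keeps no strand, so reads of a retained intron and of an unannotated overlapping transcript cannot be told apart. With reads divided by the length of the RefSeq-matched coding isoform, a choice made after seeing the data, Fbln1 led at 232 TPM ahead of Ltbp4 at 197 TPM. On that scale Fbn1 stood at 36.1 TPM, above Fbln5 at 30.8 TPM. The scale totals only genes with such an isoform, so it gives an order, and its values are not comparable with the authors' TPM.

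**Figure D2:**
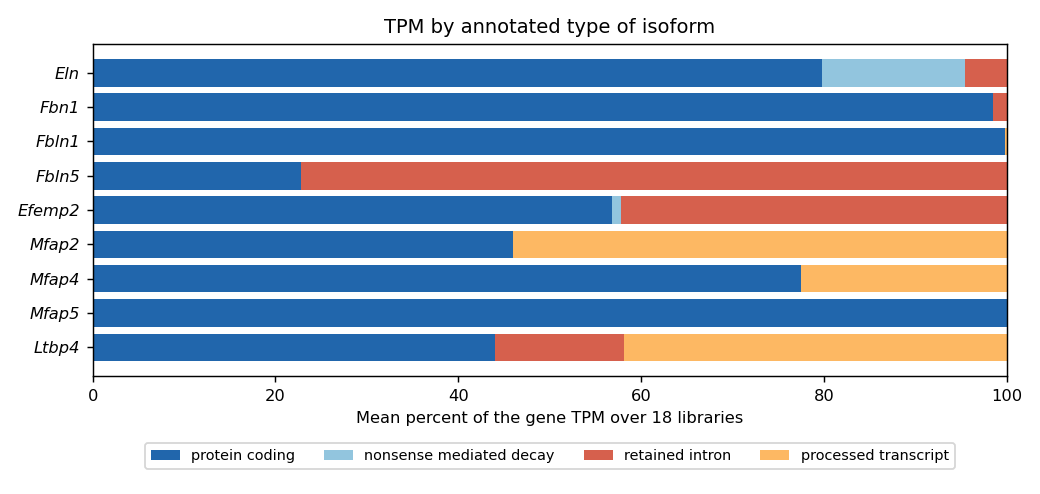
Mean share of each gene's TPM (x axis, percent, n = 18 libraries) on isoforms annotated as protein coding, nonsense-mediated decay, retained intron or processed transcript, for the 9 genes with reads in every library. Coding isoforms fill nearly the whole bar for Fbln1, Fbn1 and Mfap5 but 22.8% for Fbln5 and 44.0% for Ltbp4.

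No member passed the test in any of the 5 comparisons. The test was edgeR's quasi-likelihood test with Benjamini-Hochberg adjustment over the 15118 genes tested. All 10 members were among those tested. At 22 months, EDA-labelled against control-labelled libraries gave 0 of 10 members called, beside 0.0% of all tested genes, and 0 of 10 with an unadjusted p under 0.05, beside 3.96% (2.09% higher and 1.87% lower). No member's groups were free of overlap there, beside 2.75% of all tested genes. The members' log2 fold changes had a median of 0.33, with 7 of 10 above 0, and all tested genes had a median of -0.07. At 12 months, EDA-labelled against control-labelled libraries gave 0 members called (background 0.0%), 0 with an unadjusted p under 0.05 (4.56%, of which 2.96% higher and 1.59% lower) and 0 without overlap (1.26%). Their median was -0.05, with 4 of 10 above 0, against -0.01 for all tested genes. These counts include Fbn2, whose fitted values rest on few reads.

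Age was compared within each label. In EDA-labelled libraries, 22 against 12 months gave 0 members called (background 0.0%) and 1 of 10, Fbln1, with an unadjusted p under 0.05 (background 4.98%, of which 2.6% higher and 2.38% lower) and without overlap between the ages (background 4.0%). The members' median log2 difference was 0.53, with 8 of 10 above 0, against -0.06 for all tested genes. In control-labelled libraries, 22 against 12 months gave 0 members called (background 0.0%), 0 with an unadjusted p under 0.05 (3.51%, of which 2.14% higher and 1.37% lower) and 0 without overlap (0.556%). The median there was 0.15, with 7 of 10 above 0, and 0.02 for all tested genes. The interaction, which asks whether the difference between labels differed between the ages, gave 0 members called (background 0.0%) and 0 with an unadjusted p under 0.05 (4.02%, of which 1.54% above and 2.48% below 0). These comparisons share libraries: the 3 EDA_22mo libraries enter both the contrast of labels at 22 months and the age contrast in EDA-labelled mice. Across all tested genes edgeR called 0 in each comparison, with 599, 689, 753, 530 and 608 genes at an unadjusted p under 0.05 in the order given here, while DESeq2 called 35, 22, 43, 23 and 37. None of these was a member, and DESeq2 gave Fbn2 no adjusted p in 3 of the 5 comparisons.

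**Figure D3:**
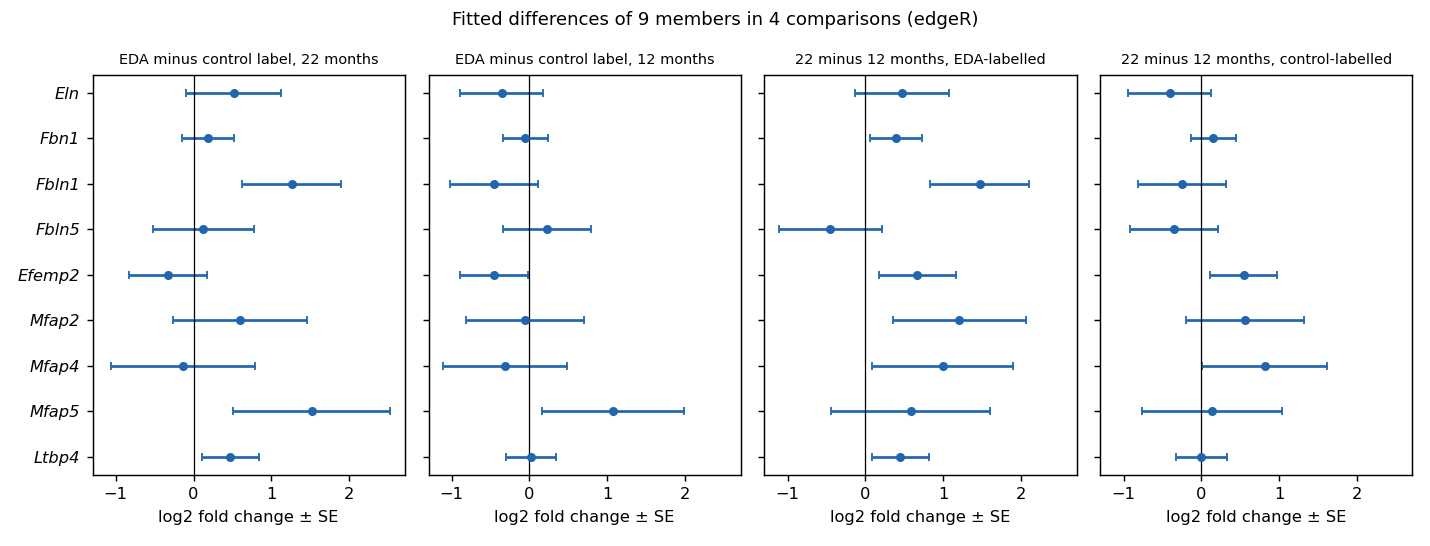
Log2 fold change with a standard error derived from the F statistic (x axis) for 9 members (rows) in 4 comparisons. Values are from edgeR on all 18 libraries. The error bars cross 0 for 6 of 9 members between labels at 22 months, 7 at 12 months, 3 with age in EDA-labelled and 7 with age in control-labelled libraries. The values farthest from 0 are those of Mfap5 (1.52 ± 1.01) and Fbln1 (1.26 ± 0.64) between labels at 22 months and of Fbln1 between ages in EDA-labelled libraries (1.47 ± 0.64).

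Elastin itself, the rubber-like core protein, was expressed at a modest level and varied within every group. Eln (ENSMUSG00000029675, chromosome 5) had 41.8, 33.5 and 11.7 CPM in EDA_22mo libraries, against 25.0, 18.9, 13.4, 24.7 and 19.2 CPM in WT_22mo libraries. Of the 3 EDA-labelled values 2 lay above the control range and 1 below it. In EDA_12mo libraries it had 16.4, 14.4, 9.29, 12.0 and 52.4 CPM, against 7.52, 19.1, 18.3, 57.01 and 31.98 CPM in WT_12mo libraries. A single library of each 12-month group stood above 50 CPM. The log2 fold change was 0.52 ± 0.61 between labels at 22 months and -0.36 ± 0.54 at 12 months. Between 22 and 12 months it was 0.47 ± 0.61 with the EDA label and -0.40 ± 0.54 with the control label, and none passed the test. The 22-month value was 0.16 ± 0.71 without EDA_22mo replicate 1 and 0.90 ± 0.65 without replicate 3. The coding isoform Eln-201 took 53.6% to 100% of Eln TPM, and Eln-203, annotated for nonsense-mediated decay, took 15.6% ± 13.9 (SD, n = 18).

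Fibrillin-1, the main subunit of adult microfibrils, was the steadiest member together with Ltbp4. Fbn1 (ENSMUSG00000027204, chromosome 2) had 112, 104 and 116 CPM in EDA_22mo libraries, against 92.3, 104, 70.7, 135 and 82.8 CPM in WT_22mo libraries. The 3 EDA-labelled values fell inside the control range. In EDA_12mo libraries it had 89.7, 107, 53.5, 52.4 and 118 CPM, against 72.2, 86.0, 82.6, 66.9 and 129 CPM in WT_12mo libraries. Its SD over all 18 libraries was 0.40 on the log2 CPM scale, the smallest of the 10 genes, and that of Ltbp4 was 0.49. Fbn1 had a log2 fold change of 0.19 ± 0.33 between labels at 22 months and -0.05 ± 0.29 at 12 months. With age Fbn1 stood at 0.39 ± 0.33 under the EDA label and 0.15 ± 0.29 under the control label.

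Fibrillin-2, the fibrillin of developing tissue, was close to the detection limit. Fbn2 (ENSMUSG00000024598, chromosome 18) had no read in 11 of 18 libraries. It had 1, 1 and 0 reads in EDA_22mo libraries, against 4, 0, 0, 13 and 0 reads in WT_22mo libraries. EDA_12mo libraries had 0, 0, 0, 23 and 10 reads, against 0, 0, 0, 0 and 11 reads in WT_12mo libraries. A count of 0 allows up to 0.162 to 0.229 CPM in those 11 libraries, before TMM scaling. That is 3 reads of the library total, for counting error alone. The highest value was 1.45 CPM, after TMM scaling. No fold change is given for Fbn2. Each group held at least 1 library with reads and at least 1 without.

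Fibulin-1 is a glycoprotein of the elastic fibre core and of basement membranes that also binds fibronectin. Its SD over all 18 libraries was 1.09 on the log2 CPM scale. Fbln1 (ENSMUSG00000006369, chromosome 15) had 169.3, 172 and 623 CPM in EDA_22mo libraries, against 78.1, 99.6, 26.8, 147 and 318 CPM in WT_22mo libraries. Replicate 3 was far above the other EDA-labelled libraries, which lay inside the control range. EDA_12mo libraries had 95.5, 126, 29.1, 168.2 and 161 CPM, against 124, 83.7, 295, 193 and 99.9 CPM in WT_12mo libraries. The lowest EDA_22mo value thus stood just above the highest EDA_12mo value.

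Between ages in EDA-labelled libraries Fbln1 differed by 1.47 ± 0.64 on the log2 scale (edgeR, unadjusted p = 0.0315, adjusted p = 0.961), with 3 of 3 libraries of 22 months above 5 of 5 of 12 months. Between labels at 22 months it differed by 1.26 ± 0.64 (edgeR, unadjusted p = 0.0611, adjusted p = 1). At 12 months the difference between labels was -0.46 ± 0.56, and with age in control-labelled libraries it was -0.25 ± 0.56. The interaction was 1.72 ± 0.85 (edgeR, unadjusted p = 0.0574, adjusted p = 1.00). The size rested on EDA_22mo replicate 3. Without it the difference was 0.56 ± 0.68 between ages in EDA-labelled libraries and 0.35 ± 0.69 between labels at 22 months. The interaction without it was 0.81 ± 0.86. That library had the fewest genes with 10 or more reads of all 18, 9715, against 12011 and 12983 in the other EDA_22mo libraries. The part of this in its Fbln1 value was not tested. With the read share of ENSMUSG00000119584, a gene without a symbol that took 3.26% to 32.8% of reads, as a covariate, the difference between labels was 0.34 ± 0.62 at 22 months and -1.08 ± 0.51 at 12 months (edgeR, unadjusted p = 0.595 and 0.0482, adjusted p = 1 and 0.977).

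**Figure D4:**
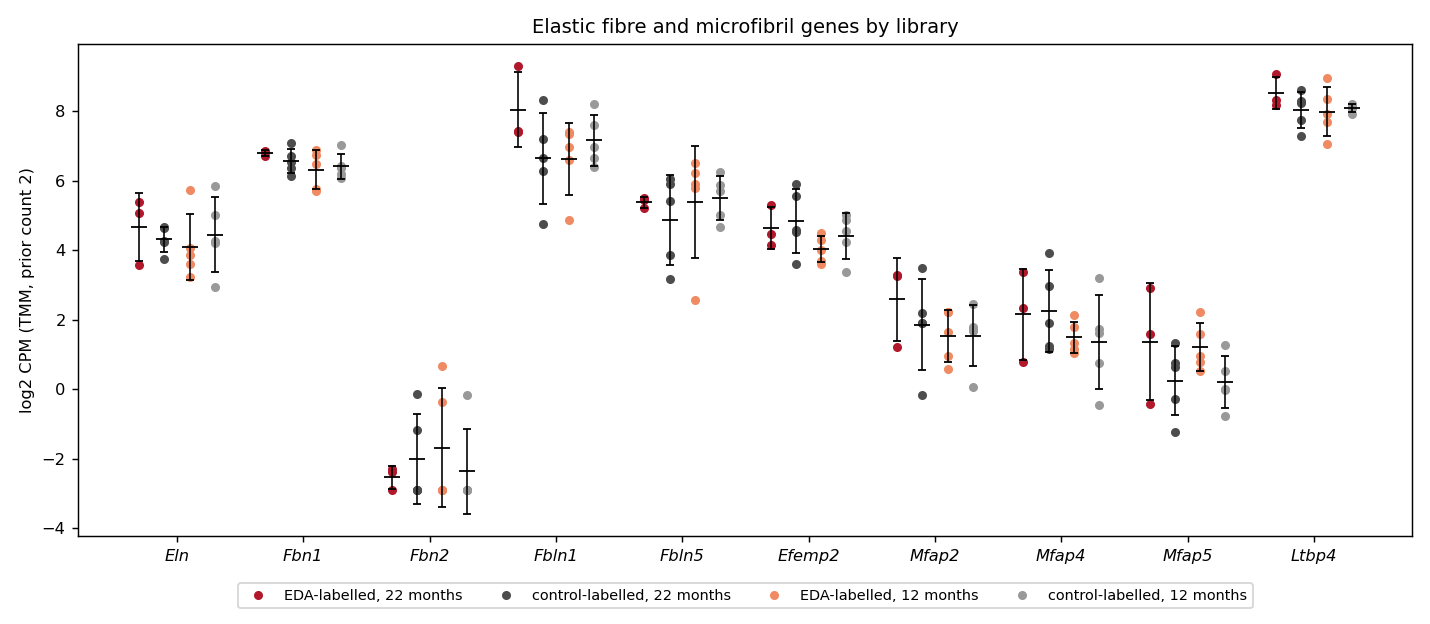
Log2 CPM (y axis, TMM-scaled, prior count 2) of the 10 genes in each library, by group, with the mean and SD of the group in black. Fbln1 in EDA_22mo libraries includes the highest single value of the gene, 623 CPM, and EDA_12mo replicate 3 has the lowest Fbln5 value, 5.74 CPM.

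Fbln1 ends in alternative ways that give the known protein variants C and D. The isoforms Fbln1-202 (C type, 2055 coding bases) and Fbln1-201 (D type, 2115 coding bases) share their first 1704 coding bases and then use different last exons. The switch is shown here because it sets the isoforms apart in the reads, with the 15 shared bases before it in lower case and the first 90 bases of each own tail in capitals, from GENCODE M21 on the plus strand of GRCm38.
Fbln1-202: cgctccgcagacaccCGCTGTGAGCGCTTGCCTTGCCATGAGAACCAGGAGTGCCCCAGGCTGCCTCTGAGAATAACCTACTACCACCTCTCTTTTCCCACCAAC
Fbln1-201: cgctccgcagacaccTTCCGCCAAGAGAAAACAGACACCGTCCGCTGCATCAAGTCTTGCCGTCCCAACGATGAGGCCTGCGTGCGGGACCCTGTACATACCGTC
The 90 own bases printed lie in chr15:85251446-85251535 for the C tail and in chr15:85263260-85263349 for the D tail, both inside coding exons of the gene. Over all 18 libraries 42619 reads went to Fbln1-202 and 541 to Fbln1-201. Fbln1-202 held 93.7% to 100% of Fbln1 TPM, with a median of 99.6%. By group its share was 99.2% ± 1.10 in EDA_22mo (SD, n = 3) and 97.8% ± 2.65 in WT_22mo libraries (SD, n = 5). The C form was the major one in every library, including EDA_22mo replicate 3 at 99.8%. The lowest share, 93.7%, was in WT_22mo replicate 3, which also had the fewest Fbln1 reads, 428.

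Fibulin-5, which carries elastin to microfibrils and binds integrins, was lowest in the same libraries as Fbln1. Fbln5 (ENSMUSG00000021186, chromosome 12) had 45.0, 36.7 and 43.6 CPM in EDA_22mo libraries, against 66.0, 14.4, 8.84, 42.5 and 59.6 CPM in WT_22mo libraries. EDA_12mo libraries had 73.6, 59.7, 5.74, 90.6 and 55.5 CPM, against 32.4, 51.4, 58.5, 76.3 and 25.5 CPM in WT_12mo libraries. EDA_12mo replicate 3 stood far below the other 4 libraries of its group, which had 55.5 CPM or more. Fbln5 had a log2 fold change of 0.13 ± 0.65 between labels at 22 months and 0.22 ± 0.56 at 12 months. With age Fbln5 stood at -0.45 ± 0.66 under the EDA label and -0.35 ± 0.57 under the control label. Without EDA_12mo replicate 3 and WT_22mo replicate 3 the values between labels were -0.13 ± 0.47 at 22 months and 0.52 ± 0.41 at 12 months.

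Fibulin-4, which couples lysyl oxidase to elastin and is encoded by Efemp2 (ENSMUSG00000024909, chromosome 19), had 21.9, 17.6 and 39.4 CPM in EDA_22mo libraries, against 23.6, 46.6, 11.9, 22.9 and 60.1 CPM in WT_22mo libraries. The groups overlapped over most of their range. At 12 months it had 12.1 to 22.3 CPM (median 16.1) in EDA-labelled and 10.3 to 32.3 CPM (median 23.1) in control-labelled libraries. Efemp2 had a log2 fold change of -0.33 ± 0.51 between labels at 22 months and -0.45 ± 0.44 at 12 months. With age Efemp2 stood at 0.67 ± 0.49 under the EDA label and 0.54 ± 0.44 under the control label. Reads of Efemp2 were spread over 17 isoforms, with 36.3% ± 13.1 of TPM on the retained-intron model Efemp2-207 and 32.8% ± 13.7 on the coding Efemp2-210 (SD, n = 18).

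In CPM, which does not correct for length, the microfibril-associated glycoproteins had the fewest reads after Fbn2. Mfap2 (ENSMUSG00000060572, chromosome 4), which encodes MAGP-1 and binds fibrillin and TGF-beta, had 2.18, 9.63 and 9.40 CPM in EDA_22mo libraries, against 3.62, 3.58, 0.752, 4.43 and 10.98 CPM in WT_22mo libraries. Both groups held values near 10 CPM and values under 4 CPM. At 12 months it ranged from 1.36 to 4.57 CPM in EDA-labelled and from 0.916 to 5.35 CPM in control-labelled libraries. The log2 fold change of Mfap2 was 0.60 ± 0.86 between labels at 22 months, and 1.21 ± 0.85 with age in EDA-labelled libraries.

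Mfap5 (ENSMUSG00000030116, chromosome 6) encodes MAGP-2, the other member of that pair. It had 7.46, 2.89 and 0.615 CPM in EDA_22mo libraries, against 1.42, 0.699, 2.38, 1.56 and 0.297 CPM in WT_22mo libraries. The highest value came from replicate 1, the library with skeletal muscle markers at 226 CPM. Over 18 libraries Mfap5 and those markers had r = 0.23 and rho = 0.17 (permutation p = 0.652 and 0.623, adjusted 0.894 and 0.943, n = 18). With markers of fibroblasts of meninges and sclera Mfap5 had r = 0.72 and rho = 0.60 (permutation p = 0.0100 and 0.0233, adjusted 0.201 and 0.337, n = 18). Without the 2 libraries farthest from the median of Mfap5 that r was 0.49. EDA_22mo replicate 1 also had the highest sum of these fibroblast markers, 865 CPM. At 12 months Mfap5 had 1.30, 4.57, 1.83, 2.90 and 1.60 CPM in EDA-labelled libraries, against 0.458, 2.28, 0.861, 0.865 and 1.31 CPM in control-labelled libraries. The log2 fold change was 1.52 ± 1.01 between labels at 22 months and 1.08 ± 0.91 at 12 months. Neither passed the test (edgeR, adjusted p = 1), and without EDA_22mo replicate 1 the first was 0.46 ± 1.21. With age Mfap5 stood at 0.58 under the EDA label and 0.14 under the control label. Counts ran from 4 to 123 reads per library.

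Mfap4 (ENSMUSG00000042436, chromosome 11), a fibrinogen-domain protein that binds tropoelastin and fibrillin, had 4.91, 10.2 and 1.58 CPM in EDA_22mo libraries, against 3.62, 2.10, 2.26, 7.72 and 14.9 CPM in WT_22mo libraries. At 12 months it ranged from 1.93 to 4.24 CPM in EDA-labelled and from 0.596 to 9.12 CPM in control-labelled libraries. The ranges overlapped between labels at each age and between ages under each label. Its log2 difference between 22 and 12 months was 1.00 ± 0.91 under the EDA label and 0.81 ± 0.80 under the control label. Between labels it was -0.13 ± 0.93 at 22 months and -0.31 ± 0.80 at 12 months.

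LTBP4, a latent TGF-beta binding protein that joins fibulin-5 and fibulin-4 to microfibrils, gave the most reads of the set. Ltbp4 (ENSMUSG00000040488, chromosome 7) had 531, 319 and 290.4 CPM in EDA_22mo libraries, against 214, 388, 156, 298 and 313 CPM in WT_22mo libraries. EDA_12mo libraries had 207, 323, 134, 490.0 and 239 CPM, against 296, 239, 274, 287 and 272 CPM in WT_12mo libraries. On the log2 CPM scale the SD was 0.47 to 0.70 in the EDA_22mo, WT_22mo and EDA_12mo groups and 0.12 in the WT_12mo group. The log2 fold change of Ltbp4 was 0.47 ± 0.37 between labels at 22 months and 0.02 ± 0.32 at 12 months. With age Ltbp4 stood at 0.45 ± 0.37 under the EDA label and 0.00 ± 0.32 under the control label. Without EDA_22mo replicate 1, the highest library, the 22-month value was 0.15 ± 0.42 and the age value under the EDA label 0.13 ± 0.42. Without EDA_12mo replicate 4, which had the highest astrocyte markers, the 12-month value was -0.28 ± 0.28 and that age value 0.75 ± 0.31 (edgeR, unadjusted p = 0.0259, adjusted p = 0.813). With the Xist class as a covariate the 22-month value was 0.28 ± 0.37.

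Ltbp4 transcripts start at either of 2 places, which give the long and the short form of the protein. In GENCODE M21 the starts of Ltbp4-201 (long) and Ltbp4-205 (short) lie 4029 bases apart on the minus strand. The coding sequences share their last 4550 bases, while the long form has 448 and the short form 250 coding bases of its own at the 5′ end. The join to the shared part is shown with own bases in capitals and the first 15 shared bases in lower case (GRCm38).
Ltbp4-201: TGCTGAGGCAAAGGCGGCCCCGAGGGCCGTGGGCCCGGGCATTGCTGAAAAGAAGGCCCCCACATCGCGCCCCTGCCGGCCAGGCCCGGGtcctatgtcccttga
Ltbp4-205: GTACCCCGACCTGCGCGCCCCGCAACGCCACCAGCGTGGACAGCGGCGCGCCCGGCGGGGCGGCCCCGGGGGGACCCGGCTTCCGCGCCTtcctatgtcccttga
The 90 own bases printed lie in chr7:27334837-27334926 for the long form and in chr7:27333355-27333444 for the short form, both in coding exons on the minus strand. RSEM gave the 2 long isoforms 0 reads in 17 of 18 libraries and 23.8 reads in WT_12mo replicate 4, which was 0.457% of the reads on both forms there. The 3 isoforms from the downstream start had 2470 to 8615 reads per library. A count of 0 allows the long form 0.0348% to 0.121% of those reads, at 3 reads and for counting error alone. The true limit is higher, since only reads that reach the first exons can tell the forms apart, and their number is not in the tables. Among the downstream isoforms the coding Ltbp4-205 took 34.98% ± 12.8 of Ltbp4 TPM and Ltbp4-210, annotated as a processed transcript, 41.9% ± 18.05 (SD, n = 18).

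The 170 bases before each start are printed because reads were assigned to 1 of the 2 starts in nearly all libraries. They are RefSeq sequences of GRCm38.p6 on the minus strand, chr7:27337693-27337862 for the upstream and chr7:27333664-27333833 for the downstream start. Capitals mark GGGCGG (the GC box) and CCAAT on either strand.
Ltbp4 upstream start: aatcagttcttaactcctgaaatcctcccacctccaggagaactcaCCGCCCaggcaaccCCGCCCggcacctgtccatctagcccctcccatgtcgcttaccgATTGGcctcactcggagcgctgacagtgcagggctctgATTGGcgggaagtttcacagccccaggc
Ltbp4 downstream start: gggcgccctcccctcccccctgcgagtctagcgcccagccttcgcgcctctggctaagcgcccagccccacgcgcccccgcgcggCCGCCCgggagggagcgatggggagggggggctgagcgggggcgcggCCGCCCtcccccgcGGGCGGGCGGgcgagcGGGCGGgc
The downstream window had a GC content of 84.7%, higher than 99.5% of the 32851 mouse windows of that length, and the upstream window 60.6%, against a median of 53.5%. GGGCGG occurred 5 times in the downstream window, matches that overlap included, and 2 times in the upstream one, and 29.8% of all windows hold it. CCAAT occurred 0 times in the downstream and 2 times in the upstream window, and 26.6% of all windows hold it. On either strand TATAAA, held by 8.40% of all windows, was in neither, nor was the AP-1 site TGACTCA, held by 3.17%, nor the E-box CACGTG, held by 4.67%. Of the 10 genes, 6 had an entry in the RefSeq table.

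The 10 genes were also compared with one another across libraries. Correlations were taken over 18 libraries on log2 CPM less the group mean, for 45 pairs, with p-values from 100000 permutations within groups. Of the 45 pairs 40 had Pearson's r above 0, with a median of 0.26, and 0 passed adjustment. Fbln1 and Fbln5 had r = 0.72 and rho = 0.55 (permutation p = 0.00671 and 0.0223, adjusted 0.0987 and 0.469, n = 18). Efemp2 and Mfap2 had r = 0.72 and rho = 0.48 (permutation p = 0.00651 and 0.0799, adjusted 0.0987 and 0.469, n = 18). Fbln1 and Mfap2 had r = 0.69 and rho = 0.55 (permutation p = 0.00877 and 0.0378, adjusted 0.0987 and 0.469, n = 18). Without the 2 libraries farthest from the median of the first gene these r were 0.42, 0.50 and 0.50. The lowest r, between Fbln1 and Mfap5, was -0.54.

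The r of Fbln1 with Fbln5, Efemp2 with Mfap2 and Fbln1 with Mfap2 were smaller without the 2 libraries with high oligodendrocyte markers. In EDA_12mo replicate 3 and WT_22mo replicate 3 Fbln1 had 29.1 and 26.8 CPM, against 78.1 CPM or more in the other 16 libraries. Fbln5 had 5.74 and 8.84 CPM there, against 14.4 CPM or more elsewhere, and Ltbp4 134 and 156 CPM, against 207 CPM or more. Mfap2 was lowest in WT_22mo replicate 3, at 0.752 CPM, and had 1.36 CPM in EDA_12mo replicate 3. Eln at 9.29 and 13.4 CPM and Mfap5 at 1.83 and 2.38 CPM were not the lowest of the 18. Without these 2 libraries, left out after seeing the data, 25 of 45 pairs had r above 0. There r was 0.34 for Fbln1 with Fbln5, 0.56 for Efemp2 with Mfap2 and 0.46 for Fbln1 with Mfap2. Some other pairs changed sign or grew in size. Fbn1 went from 0.23 to -0.49 with Fbln5 and from 0.14 to -0.38 with Ltbp4. Fbln1 with Mfap5 went from -0.54 to -0.63. In such bulk samples fewer cells of a type and less RNA per cell cannot be told apart.

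**Figure D5:**
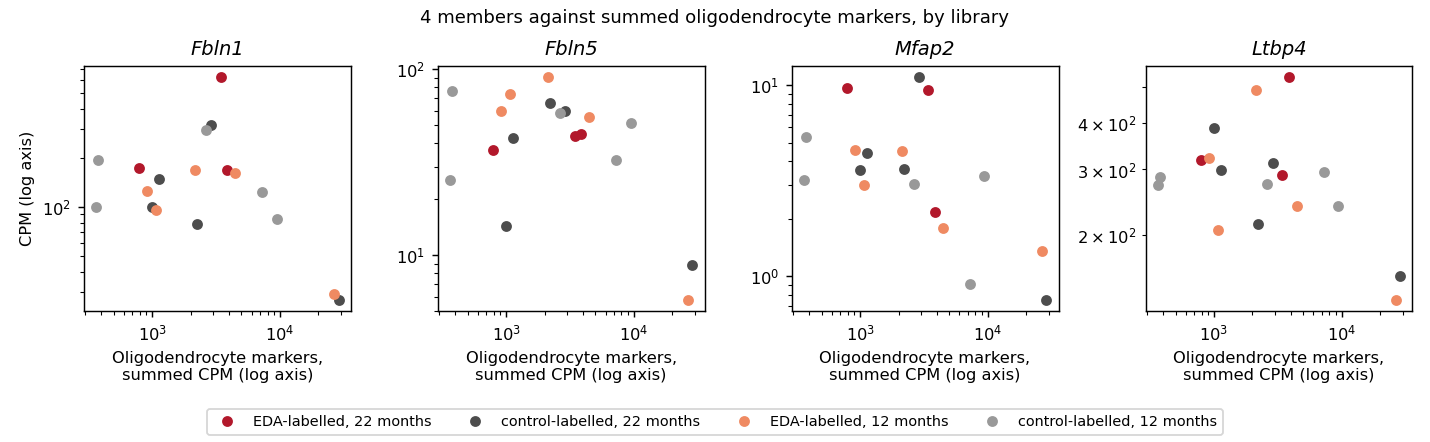
CPM of 4 members (y axis, log scale) against the summed CPM of 8 oligodendrocyte markers (x axis, log scale) in 18 libraries, coloured by group. The 2 libraries at 26622 and 28783 CPM hold the lowest values of Fbln1, Fbln5 and Ltbp4, and no line is drawn because the other 16 libraries form a separate cloud.

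Of the 10 genes Fbln1 and Fbln5 had the highest r with endothelial markers, short of adjustment. Over 100 relations of the 10 genes with 10 marker lists, 0 passed adjustment, and the smallest p was that of Fbln1 with the 8 endothelial markers (r = 0.75, rho = 0.80, permutation p = 0.00196 and 0.00076, adjusted 0.188 and 0.0740, n = 18). Without the 2 libraries farthest from the median of Fbln1 that r was 0.67. Fbln5 with the same markers had r = 0.67 and rho = 0.72 (permutation p = 0.0355 and 0.00148, adjusted 0.412 and 0.0740, n = 18), and r = 0.59 without its 2 farthest libraries. Ltbp4 had r = 0.60 and rho = 0.46 with them (permutation p = 0.041 and 0.0800, adjusted 0.412 and 0.492, n = 18). Mfap2 had r = 0.54 and rho = 0.47 (permutation p = 0.0185 and 0.0750, adjusted 0.265 and 0.492, n = 18). Without the 2 farthest libraries of each gene these r were 0.24 for Ltbp4 and 0.50 for Mfap2. EDA_22mo replicate 3, the library with the highest Fbln1, had endothelial markers at 532 CPM, against 278 and 349 CPM in the other EDA_22mo and 142 to 348 CPM in the WT_22mo libraries. The highest endothelial sum, 768 CPM, was in EDA_12mo replicate 4, where Fbln1 had 168.2 CPM. The lowest endothelial sums, 164 and 142 CPM, were in EDA_12mo replicate 3 and WT_22mo replicate 3, the libraries with high oligodendrocyte markers. Within the endothelial list Flt1, Vwf, Tek and Cdh5 had medians of 109, 71.6, 50.8 and 14.98 CPM. Pecam1, Kdr, Cldn5 and Esam had medians of only 0.74, 1.12, 2.69 and 1.01 CPM. Kdr was at 0 in 4 of 18 libraries, and Pecam1, Cldn5 and Esam were at 0 in 3 each. The relation of Fbln1 and Fbln5 with single endothelial markers was not tested. Fbn2, with few reads, had r = -0.68 with smooth muscle markers (rho = -0.66, permutation p = 0.00377 and 0.00945, adjusted 0.188 and 0.315, n = 18). The next smallest by Pearson's r were Mfap2 with oligodendrocyte markers (r = -0.66, rho = -0.57, permutation p = 0.00684 and 0.0213, adjusted 0.201 and 0.337, n = 18) and Mfap2 with skeletal muscle markers (r = -0.66, rho = -0.57, permutation p = 0.00896 and 0.0236, adjusted 0.201 and 0.337, n = 18). Without the 2 libraries farthest from the median of Mfap2 these r were -0.46 and -0.63. Markers of fibroblasts of meninges and sclera summed to 334 to 865 CPM in EDA_22mo and 366 to 528 CPM in WT_22mo libraries. At 12 months they summed to 321 to 610 CPM in EDA_12mo and 418 to 579 CPM in WT_12mo libraries. Within that list Col1a2 and Lum had medians of 198 and 205 CPM, while Slc22a6 was at 0 in 17 and Dpt in 14 of 18 libraries. Smooth muscle and pericyte markers summed to 160 to 777 CPM in EDA_22mo and 203 to 834 CPM in WT_22mo libraries. Their 12-month sums were 211 to 1928 CPM in EDA_12mo and 178 to 389 CPM in WT_12mo libraries. Cnn1 led this list with a median of 237 CPM (26.9 to 1695), against 32.1 CPM for Rgs5, the next highest. Myh11 was at 0 in 7 of 18 libraries. The relation of Fbn2 with single smooth muscle markers was not tested. In EDA_22mo replicate 3 smooth muscle and pericyte markers summed to 777 CPM and fibroblast markers to 334 CPM.

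Partners of elastic fibres were read from 5 lists. Of 18 microfibril and fibulin partners 17 were tested, and 0 passed in any comparison. At 22 months 1 of them was higher in EDA-labelled libraries at an unadjusted p under 0.05, beside 2.09% of all tested genes, and 11 were above 0, with a median of 0.21. Hspg2, the basement membrane proteoglycan perlecan, had 90.6 to 168 CPM in EDA_22mo and 40.5 to 91.96 CPM in WT_22mo libraries, a log2 fold change of 0.90 ± 0.37 (edgeR, unadjusted p = 0.0263, adjusted p = 1). At 12 months Hspg2 had 62.7 to 182 CPM in EDA-labelled and 38.01 to 70.7 CPM in control-labelled libraries (0.72 ± 0.33, edgeR, unadjusted p = 0.0419, adjusted p = 1). The ranges of the 2 labels overlapped at each age. Also at 12 months, Thsd4, which encodes the fibrillin-binding ADAMTSL6, had a median of 27.8 CPM in EDA_12mo and 56.5 CPM in WT_12mo libraries (-0.97 ± 0.46, edgeR, adjusted p = 1). Mfap3 had a median of 59.5 CPM in EDA_12mo and 99.9 CPM in WT_12mo libraries (-0.77 ± 0.40, edgeR, adjusted p = 1).

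Among the 5 enzymes that crosslink elastin and collagen, 0 passed in any comparison. Loxl1, the lysyl oxidase that acts on elastin, had 23.0 to 40.5 CPM in EDA_22mo and 5.33 to 19.1 CPM in WT_22mo libraries (1.16 ± 0.55, edgeR, unadjusted p = 0.0475, adjusted p = 1). Its groups did not overlap there, as for 2.75% of all tested genes. At 12 months Loxl1 had 6.31 to 49.4 CPM in EDA-labelled and 6.76 to 20.6 CPM in control-labelled libraries. Of 8 elastin-degrading proteases 5 were tested, and 0 had an unadjusted p under 0.05 in any comparison. Of 9 integrins and elastin receptors 8 were tested. Itga5, a chain of the main fibronectin receptor, had 25.9 to 402 CPM in EDA_12mo and 35.97 to 103 CPM in WT_12mo libraries (1.37 ± 0.56, edgeR, unadjusted p = 0.0230, adjusted p = 1). Of the 3 TGF-beta ligands Tgfb1 had the smallest p at 22 months, with 1.23 to 2.73 CPM in EDA-labelled and 0 to 1.19 CPM in control-labelled libraries. Adamtsl2, which the rule also names at 22 months and with age in controls, was at 0 in the median library of all 4 groups and gets no fold change. With age in control-labelled libraries the other genes of smallest p were Thsd4 (-0.67 ± 0.46), Itga5 (-0.76 ± 0.55) and Ltbp3, a relative of Ltbp4 that stores TGF-beta (-0.46 ± 0.36), and none passed.

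For each member the 3 other genes most like it across libraries were listed by Pearson's r of log2 CPM less the group mean, as a description over 18 libraries that share depth and composition. Fbln1 was most like Dap (0.94), Dnmbp (0.94) and Lcat (0.92), which encodes an enzyme that esterifies cholesterol in lipoproteins. Fbn1 was most like Fmod (0.83), the collagen-binding proteoglycan fibromodulin. Fbln5 was most like Arhgap26 (0.87) and the cation channel gene Trpm3 (0.86). Mfap4 was most like Smo (0.90) and Cdon (0.85), a transducer and a co-receptor of Hedgehog signals. Mfap2 was most like Adra1b (0.84), an adrenergic receptor gene, and Matn2 (0.81), which encodes the matrix protein matrilin-2. Eln was most like Plekhg5 (0.78), Akt2 (0.76) and the chemokine gene Cxcl12 (0.75). Efemp2 was most like Fbxl6 (0.90), Mfap5 like Ifih1 (0.88) and Ltbp4 like Ap3d1 (0.85). With group means kept, Dap was second for Fbln1 (0.94), but Nav2, second for Efemp2 at 0.83, fell to 0.38.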

How the data were processed

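RNA of laser-captured mouse optic nerve head was measured in 18 libraries. Per the labels' protocols, cDNA was made with SMART-Seq v4, turned into libraries with Nextera XT and sequenced as read pairs (NovaSeq). Per the same labels, alignment was by STAR and estimation by RSEM. The submitters' processing notes name the build GRCm39. Which versions and gene models were used is not given in the sources used here.

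The authors' expected counts were deposited per gene and per isoform. Count tests used them rounded, since 3.59% of gene-level ones had a fraction. The authors' TPM values, which RSEM scales for effective length and library total, gave levels between genes and isoform shares. The authors' percent of each gene per isoform was deposited as well, and shares were recomputed here from TPM. Symbols (52083 of 55416 identifiers), isoform types and exon structure came from GENCODE M21 on GRCm38, another build, on which the printed positions, the distance between starts and the coding lengths rest. No expression value rests on its coordinates. Promoter sequences came from RefSeq on GRCm38.p6.

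filterByExpr kept 15118 genes, scaled by TMM. edgeR 4.0.16 (quasi-likelihood, robust, a mean per group, all 18 libraries) tested 5 contrasts two-sided, with Benjamini-Hochberg adjustment over all tested genes and a threshold of 0.05. The value after ± beside a log2 fold change is a standard error derived from that test. It is the size of the fold change divided by the square root of its F statistic. CPM are TMM-scaled, and log2 CPM have a prior count of 2. DESeq2 1.42.0 and limma 3.58.1 on log2(TPM + 1), other scalings and filters, covariates and leaving out each library were alternatives. The code was tested on simulated data. The labels do not say that libraries came from separate animals, so p-values measure the spread between libraries, which may be technical in part. Every pair of libraries within a group differed by more than counting noise (lowest chi-square per degree of freedom 42.8). Reads are not independent molecules after amplification, so limits from a count of 0 cover counting error only. Divided reads make isoform values, and values of overlapping genes, estimates.

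The members, the lists of partners and the marker lists were chosen with earlier results of these data known. All members are named in every comparison. From the 5 partner lists up to 4 genes with the smallest p in each contrast of labels and in age in controls are named, and for each member up to 3 other genes of highest correlation averaging 2 log2 CPM or more.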

Additional observations from a re-analysis of the deposited data

Results flagged for a closer look

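Within groups of 5 libraries, 30 sets of values were examined for a library far from the others (Dixon's ratio at the 95% level), and 2 were found. Chance finds about 1 in 20 such sets, a rate that does not hold where values are tied. Fbln5 in EDA_12mo replicate 3 was at 2.554 log2 CPM (110 reads), against 5.80 to 6.50 log2 CPM in the other 4 libraries of that group. The same library had oligodendrocyte markers at 26622 CPM, and their part in the low value was not tested. Fbn2 in WT_12mo replicate 5 was at -0.1624 log2 CPM, from 11 reads, while the other 4 libraries of that group had 0 reads (-2.90 log2 CPM, the value that the prior count gives). With those 4 values tied, any other value in the remaining library gives a ratio of 1.0. The rule could therefore not fail to flag it.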

How the results depend on the processing

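No paired analysis was possible because the labels name no pairs between the groups. Each title opens with a number of its own, whose meaning the labels do not give. These numbers form a separate run in each group, so anything that follows them cannot be told apart from group. No member passed the threshold in any setting: over 877 recomputed differences of 9 members the lowest adjusted p was 0.466. The log2 differences of 26 of 45 member results kept their sign throughout, and those that changed it had sizes of 0.58 or less. Against 0 genes called by edgeR, DESeq2 called 35 between labels at 22 months, 22 between labels at 12 months, 43 and 23 between ages in EDA-labelled and control-labelled libraries, and 37 in the interaction. For genes averaging 2 log2 CPM or more edgeR called 1 gene between labels at 12 months, and leaving out each library in turn called 0 to 1 there (1 without EDA_12mo replicate 4) and 0 in the other comparisons. The causes of these differences were not tested. Pairs of members with r above 0 numbered 25 of 45 without the 2 libraries with high oligodendrocyte markers and 40 with group means kept. With the length of the RefSeq-matched isoform the median levels were 197 TPM for Ltbp4, 232 for Fbln1, 36.1 for Fbn1 and 17.99 for Eln. These values total only genes with such an isoform and are not on the scale of the authors' TPM. The order of median TPM was the same after rescaling without ENSMUSG00000119584 and mitochondrial genes.

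Differences that changed sign against the main fit are given as log2 values. With the read share of ENSMUSG00000119584 as a covariate, Fbln5 was at -0.39 between labels at 22 months, Fbn1 was at 0.13, Fbln5 was at -0.16, Ltbp4 was at -0.084 between labels at 12 months, Mfap4 was at -0.0056 in the interaction. Without the 2 libraries with the highest oligodendrocyte markers, a choice made after seeing the data, Fbln5 was at -0.13 between labels at 22 months, Fbn1 was at 0.074, Mfap2 was at 0.13 between labels at 12 months, Fbln1 was at 0.015, Mfap5 was at -0.21 between 22 and 12 months in control-labelled libraries, Efemp2 was at -0.18, Mfap4 was at -0.14 in the interaction. With limma on log2(TPM + 1), Mfap4 was at 0.41 between labels at 22 months, Fbn1 was at 0.14, Mfap2 was at 0.16, Mfap4 was at 0.060 between labels at 12 months, Ltbp4 was at -0.063 between 22 and 12 months in control-labelled libraries, Fbln5 was at 0.31 in the interaction. With Xist-expressing against Y-linked-expressing libraries as a covariate, Mfap2 was at 0.052, Ltbp4 was at -0.033 between labels at 12 months. Without a filter on low counts, Ltbp4 was at -0.0097 between 22 and 12 months in control-labelled libraries. Limma on log2(TPM + 1) placed the median of all tested genes at 0.14 between labels at 12 months, against -0.01 in edgeR. Leaving out each library in turn changed signs, with these lowest to highest log2 values: between labels at 22 months, Fbln5 -0.13 to 0.41, Efemp2 -0.74 to 0.0041, Mfap4 -0.91 to 0.51. Between labels at 12 months, Eln -1.04 to 0.12, Fbn1 -0.21 to 0.13, Fbln5 -0.0055 to 0.52, Mfap2 -0.29 to 0.22, Mfap4 -0.58 to 0.43, Ltbp4 -0.28 to 0.20. Between 22 and 12 months in control-labelled libraries, Eln -0.64 to 0.073, Fbln1 -0.85 to 0.11, Mfap2 -0.034 to 0.83, Mfap5 -0.21 to 0.54, Ltbp4 -0.16 to 0.15. Between 22 and 12 months in EDA-labelled libraries, Mfap5 -0.47 to 1.08. In the interaction, Fbln5 -0.39 to 0.19, Efemp2 -0.29 to 0.46, Mfap4 -0.60 to 0.82, Mfap5 -0.61 to 0.94. Depth limits Fbn2 (0 to 23 reads per library), Mfap5 (4 to 123), Mfap2 (12 to 148) and Mfap4 (9 to 201). Under the filter on a mean of 2 log2 CPM Fbn2 and Mfap5 have no value. The interaction has no fit on the compared groups alone, since it uses all 4.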

Other observations

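Between 22 and 12 months in EDA-labelled libraries, 3 of the 38 elastic fibre partners tested had an unadjusted p under 0.05, beside 4.98% of all tested genes. They are named after their values were seen. Itga5, a chain of the fibronectin receptor, had 19.4 to 45.5 CPM at 22 months and 25.9 to 402 CPM at 12 months (-2.51 ± 0.71, edgeR, unadjusted p = 0.00201, adjusted p = 0.961). Adamtsl4, a fibrillin-1-binding protein needed for the lens zonule, had 45.4 to 84.1 CPM at 22 months and 90.1 to 267 CPM at 12 months (-1.21 ± 0.48, edgeR, unadjusted p = 0.0207, adjusted p = 0.961). Bgn, the small proteoglycan biglycan, had 186 to 251 CPM at 22 months and 59.5 to 189.7 CPM at 12 months (0.77 ± 0.37, edgeR, unadjusted p = 0.0497, adjusted p = 0.961). The ages did not overlap for Adamtsl4, as for 4.0% of all tested genes, and overlapped for Itga5 and Bgn, and none of the 3 passed adjustment. Age in EDA-labelled mice shares the EDA_12mo libraries with the contrast of labels at 12 months, in which Itga5 is also named.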
